A study of Mus musculus with 9 samples.

Results

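The histone deacetylase (HDAC) family was followed across the hippocampus of mice with 3 doses of IF1, the inhibitor protein of the mitochondrial ATP synthase. The members were *Hdac1*, *Hdac2*, *Hdac3*, *Hdac4*, *Hdac5*, *Hdac6*, *Hdac7*, *Hdac8*, *Hdac9* and *Hdac11*, and every non-control probe carrying one of these gene names was taken, which gave 15 of the 39429 probes on the array for 10 genes. *Hdac1* had 3 probes, *Hdac6*, *Hdac8* and *Hdac9* had more than 1, and the 6 other genes had 1 each. All 15 passed the filter on dim probes that 27993 probes passed. *Hdac4* was chosen by its lower signal in IF1-TG mice compared with IF1-KO mice in these same arrays, so its values are given as a description, with no test; the other members came with it as its family. *Hdac10* was not among the members and was not analysed here.

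Whole hippocampus was taken from male mice aged 9 months, kept on a C57BL/6J background, with 3 mice per genotype and 1 array per mouse. By the paper, the floxed allele came from a C57BL/6NTac line crossed with a B6;SJL line, and IF1-TG mice from B6.CBA and B6;CBA lines. Sequence left from these lines and the genotype cannot be told apart. IF1-KO mice carried floxed alleles of *Atp5if1* (named *Atpif1* on the array) from which exon 3 was removed by Cre under the *Camk2a* promoter, active mostly in excitatory neurons of the forebrain. IF1-TG mice carried human IF1 under a tetracycline-regulated element together with the tTA transactivator under the *Camk2a* promoter. Both drivers start early after birth. CRL mice are labelled only as controls. For the study's neuron cultures, the methods describe controls that carried Cre without floxed alleles, or that were wild type or carried tTA alone, and which of these the CRL mice of the arrays were is not given in the sources used here. The tissue also holds neurons and glia in which neither driver is active, and in such bulk RNA fewer cells of a type and less RNA per cell cannot be told apart.

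HDACs remove acetyl groups from lysines of histones and other proteins, and on chromatin this usually goes with lower transcription. Class I enzymes (HDAC1, HDAC2, HDAC3, HDAC8) are mostly nuclear, and all but HDAC8 act inside corepressor complexes. Class IIa enzymes (HDAC4, HDAC5, HDAC7, HDAC9) have little deacetylase activity of their own, bind MEF2 transcription factors, and leave the nucleus of neurons when calcium-dependent kinases phosphorylate them and 14-3-3 proteins hold them in the cytoplasm. HDAC6 is a cytoplasmic class IIb enzyme that deacetylates tubulin, and HDAC11 is the only class IV enzyme. In the hippocampus, HDAC2 is known as a brake on synaptic plasticity, whereas HDAC4 in forebrain neurons is required for normal memory in mice.

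The probes are 60 bases long, and stretches of 30 bases are shown for those on which the results turn. *Hdac4* was read by 1 probe of that name, at chr1:93829554-93829613 of mm9 on the minus strand. A probe annotated to a predicted *Hdac4* transcript lies 2887 bases away at chr1:93826607-93826666, on the same strand; it carries a transcript identifier in place of the gene name, is therefore outside the 15, and is called the variant probe. The first 30 bases of each, 5′ to 3′, show that they read different sequence of the gene.
Hdac4: acttgggcagagttgctgaatcaagttgac
Hdac4 variant probe: ttggttgtgtttctttcctcagaacattcc

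The 2 *Hdac6* probes, at chrX:7507261-7507320 and chrX:7507249-7507308 on the minus strand, are shifted by 12 bases and share 48. Their first 30 bases are shown with the bases common to both stretches in capitals, because they are 2 readings of nearly the same RNA on each array.
Hdac6 at chrX:7507261-7507320: acattgaaggagACAACGGGGCAGTGGCAG
Hdac6 at chrX:7507249-7507308: ACAACGGGGCAGTGGCAGcaggtcagcata

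The *Hdac5* probe, at chr11:102057076-102057135 on the minus strand, is shown by bases 31 to 60 with a polyadenylation hexamer in capitals.
Hdac5: attttgtttattttttctATTAAAaacaaa
AATAAA or ATTAAA, searched on the strand of the probe, occurred in 3 of the 15 HDAC probes and in 17.9% of all probes kept.

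The accession of all 15 probes matched the RefSeq (GRCm38.p6) symbol of the gene. The array annotation placed 11 on the chromosome of the gene, gave 2 no position and placed 2 of the 3 *Hdac1* probes on other chromosomes, so these 2 may also read a near-identical copy and are uncertain. Signals are on the log2 scale relative to the 75th percentile of each array, and levels of probes of different genes are not compared. For the partner genes and markers below, the probe with the highest mean over the 9 arrays is called the brightest and serves only to pick 1 probe per gene.

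Between 66.7% and 74.9% of spots were well above background per array, with the 3 IF1-TG arrays lowest. The arrays lay on 3 slides. IF1-TG replicates 1 and 2 were alone on slide 1, slide 2 held IF1-TG replicate 3, IF1-KO replicate 1 and CRL replicates 1 and 2, and slide 3 held the rest. *Atpif1* was at 5.20 and 5.53 in IF1-KO replicates 2 and 3 against 6.19 to 6.34 in CRL, but at 6.43 in the library labelled IF1-KO replicate 1, so the loss given by its label is not seen there. All 6 excitatory neuron markers were well above background on every array, and their summed signal, in multiples of the 75th percentile, was 35.4 to 37.9 in IF1-KO, 36.3 to 41.6 in CRL and 39.8 to 41.4 in IF1-TG. The 8 oligodendrocyte markers summed to 96.5 to 145 in IF1-KO, 133 to 170 in CRL and 144 to 179 in IF1-TG. The 8 microglial markers summed to 46.2 to 52.9 in IF1-KO, 53.1 to 59.5 in CRL and 56.1 to 66.1 in IF1-TG, so that all IF1-KO arrays were below all others. The 5 choroid plexus markers, all well above background on every array, ran from 2.04 to 179 within the series and were high on 1 array of each genotype. The 5 striatal markers, which mark tissue next to the hippocampus, had a median difference from CRL of -0.37 in IF1-TG and -0.41 in IF1-KO, with all 5 below 0. Their sums overlapped, at 6.63 to 7.89 in IF1-KO, 7.52 to 12.2 in CRL and 6.49 to 12.2 in IF1-TG. The marker genes past the 1.5-fold and P thresholds used for the family were the striatal *Adora2a*, at -0.96 in IF1-TG and -1.16 in IF1-KO from CRL, the interneuron gene *Pvalb*, at -0.65 in IF1-TG from CRL on 1 of its 2 probes, and the astrocyte gene *Aqp4*, at 0.79 between IF1-TG and IF1-KO on 1 of its 2. The part of these differences in the values below was not tested.

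*Hdac4*, described first, was the member chosen for its lower signal in IF1-TG. Its probe read 0.84, 0.94 and 0.77 in IF1-KO, 0.34, 0.75 and 0.78 in CRL, and 0.15, 0.40 and -0.85 in IF1-TG. All IF1-TG arrays were below all IF1-KO arrays, whereas IF1-TG and CRL overlapped because CRL replicate 1 was below IF1-TG replicate 2. The mean was 0.85 ± 0.083 in IF1-KO, 0.63 ± 0.25 in CRL and -0.10 ± 0.66 in IF1-TG (SD, n = 3 each). IF1-TG differed from IF1-KO by -0.95 (SE 0.30), a 1.94-fold lower signal, and from CRL by -0.73 (SE 0.30), 1.66-fold lower. IF1-KO and CRL, neighbours in the order of the means, differed by 0.23 (SE 0.30, 95% interval -0.45 to 0.90), within the spread. The comparisons share arrays and are not separate evidence.

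The size of the *Hdac4* difference depended on IF1-TG replicate 3. Without it the difference was -0.58 from IF1-KO and -0.35 from CRL, and the IF1-TG arrays that remained were still below every IF1-KO array. On that array 66.7% of spots were well above background, the lowest share of the 9. Its microglial markers summed to 66.1, the highest of the 9 arrays, its endothelial markers to 9.34, the lowest, and its excitatory neuron markers to 40.7, inside the range of CRL. The part of these in the *Hdac4* value was not tested.

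Slide 2, which held this array beside other genotypes, gave a difference of -1.69 from its IF1-KO array, which is the library in which the loss of *Atpif1* was not seen, and -1.40 from its 2 CRL arrays. With slide as a fixed block the differences were -1.62 and -1.43, and these too rest on IF1-TG replicate 3 alone. Slide 1 held IF1-TG arrays alone, so the values of IF1-TG replicates 1 and 2 and the slide cannot be told apart.

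**Figure D1:**
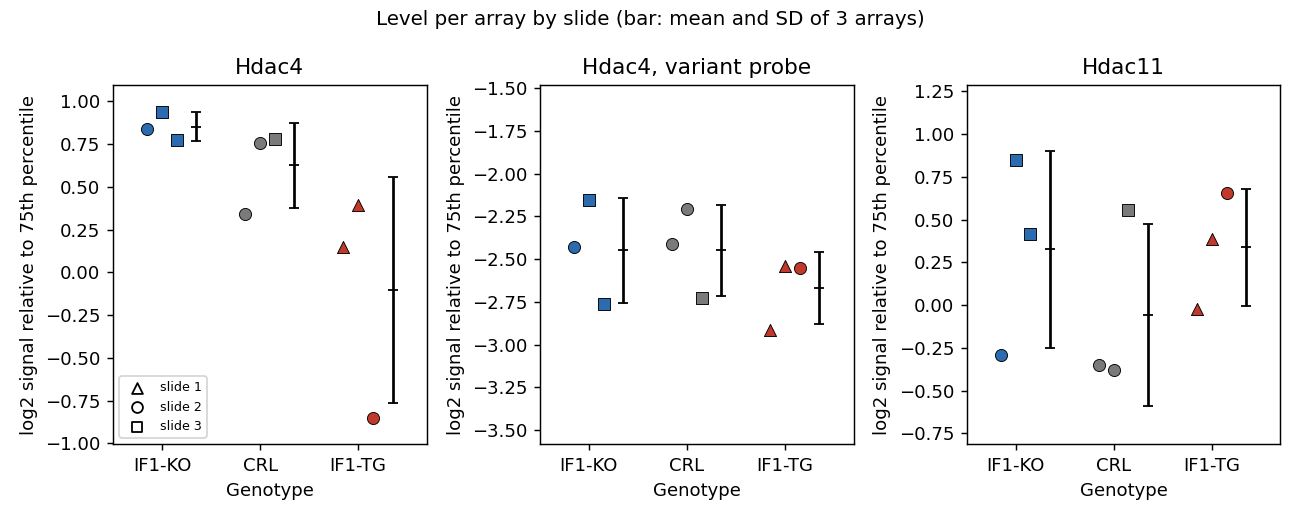
Level of Hdac4 (left), of the Hdac4 variant probe (middle) and of Hdac11 (right) on each of the 9 arrays, on the log2 scale of the signal over the array's 75th percentile, by genotype; marker shapes give the slide, bars the mean and SD of 3 arrays, and each axis spans the same range. The IF1-TG array of slide 2 is at -0.85 for Hdac4 and at -2.55 for the variant probe, and Hdac11 is between -0.38 and -0.29 on the IF1-KO and CRL arrays of slide 2 and between 0.42 and 0.85 on those of slide 3.

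The variant probe did not show the same separation. It read -2.43, -2.15 and -2.76 in IF1-KO, -2.41, -2.20 and -2.73 in CRL, and -2.91, -2.54 and -2.55 in IF1-TG. All 3 genotypes overlapped, and IF1-TG replicate 3, the lowest array for *Hdac4*, was in the middle of the IF1-TG arrays here. IF1-TG differed by -0.22 from both IF1-KO (SE 0.20, interval -0.68 to 0.24) and CRL (SE 0.20), the same sign as *Hdac4*, and within slide 2 by -0.13 from the IF1-KO array without the loss of *Atpif1* and by -0.25 from the CRL arrays. With 1 array left out, the difference ran from -0.38 to -0.072 from IF1-KO and from -0.36 to -0.098 from CRL. Across the 9 arrays the 2 probes correlated at r = 0.28, and at 0.50 without IF1-TG replicate 3, given as a description because the arrays differ in genotype and slide.

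Across the 18 alternative settings, the *Hdac4* difference of IF1-TG lay between -1.62 and -0.58 from IF1-KO and between -1.43 and -0.35 from CRL.

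**Figure D2:**
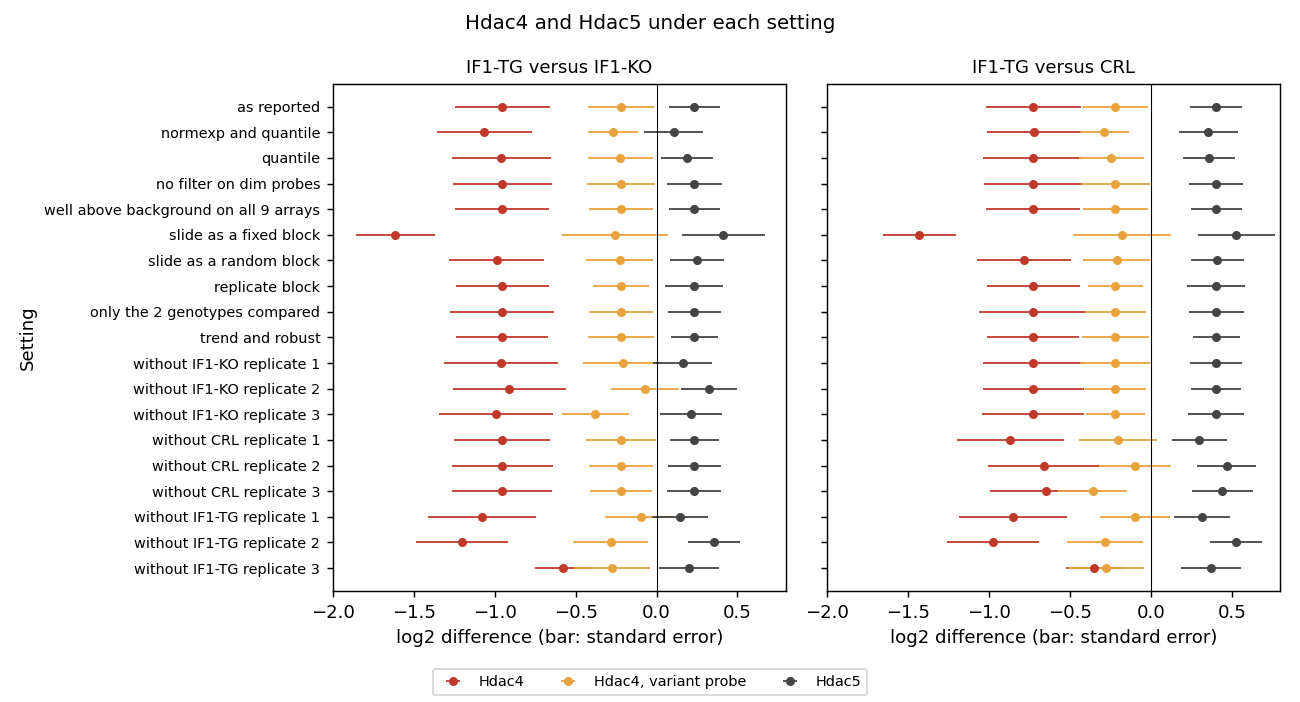
log2 difference of IF1-TG from IF1-KO (left) and from CRL (right) for Hdac4 (red), the Hdac4 variant probe (orange) and Hdac5 (black) under each processing setting, with bars for the standard error. Hdac4 moves from -0.95 to -0.58 against IF1-KO without IF1-TG replicate 3. With slide as a fixed block, where IF1-TG rests on that array alone, it moves to -1.62. Hdac5 stays above 0 in every setting.

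None of the 14 other probes, for 9 genes, was past both thresholds in any of the 3 comparisons. The thresholds were a change of 1.5-fold or more and a limma P value under 0.05. The study's methods name these values without saying whether P was adjusted, and the P value before adjustment was used here. Of all probes kept, 3.77% were past them between IF1-TG and IF1-KO, 4.47% between IF1-TG and CRL and 1.06% between IF1-KO and CRL. *Hdac4* itself counted as 1 of 15 in the first 2 comparisons, from which nothing is read because it was chosen for this difference. At an unadjusted P value below 0.05 alone, the 14 other probes gave 0, 1 and 0 in these comparisons, against 7.12%, 8.53% and 2.56% of all probes. None of the 14 had an adjusted P value below 0.05, against 0.0107%, 0.00357% and 0% of all probes, and their smallest was 0.732, 0.562 and 1. Their differences ran from -0.10 to 0.31 between IF1-TG and IF1-KO, from -0.31 to 0.41 between IF1-TG and CRL, and from -0.31 to 0.38 between IF1-KO and CRL. The median difference of the 14 was 0.14, 0.090 and -0.041 (0.12, 0.025 and -0.0089 with *Hdac4*), against 0.0070, 0.00066 and -0.0075 over all probes kept.

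The 95% interval lay within 1.5-fold in either direction for 8, 6 and 10 of the 14 probes in the 3 comparisons, and within 2-fold for 14, 13 and 13, *Hdac11* being the exception in the comparisons with CRL.

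**Figure D3:**
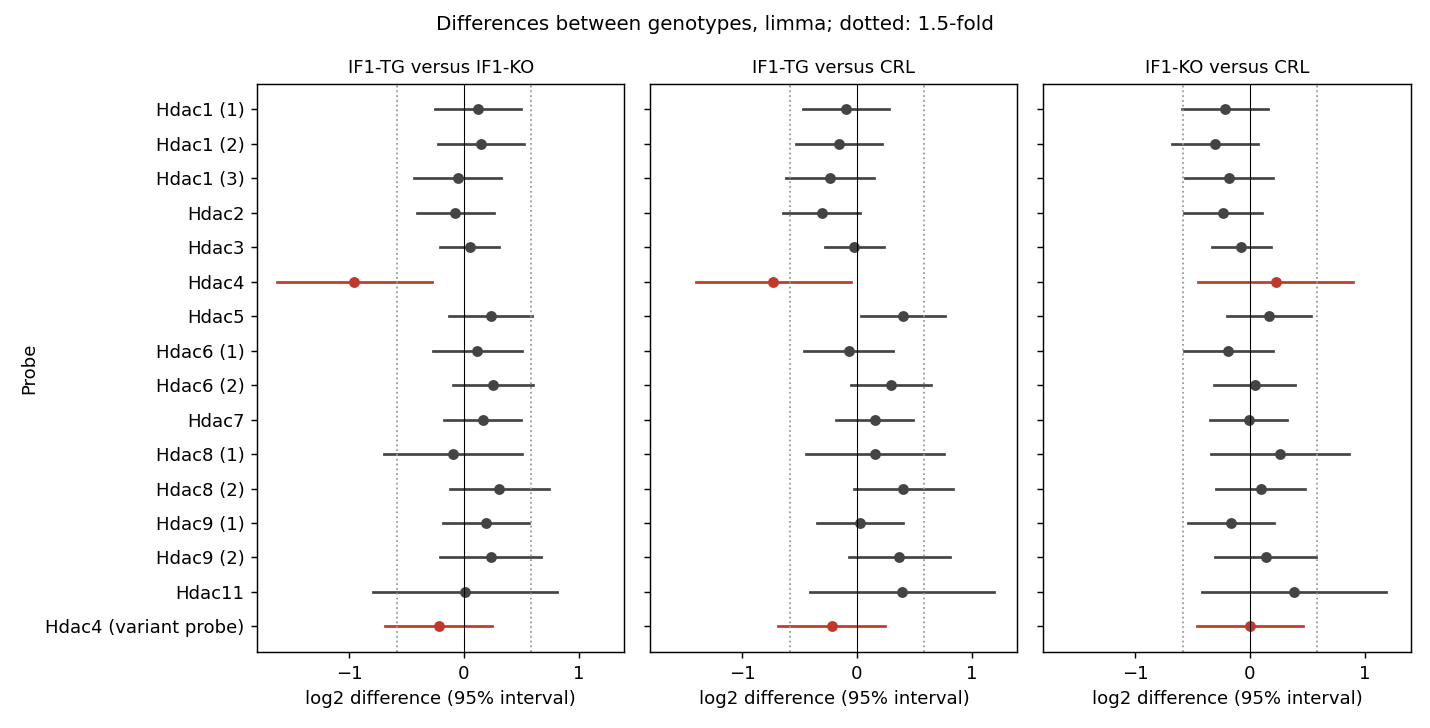
Difference in log2 signal (points) with 95% intervals from limma (bars) for the 15 HDAC probes and the Hdac4 variant probe in the 3 comparisons, with Hdac4 in red and dotted lines at 1.5-fold; the intervals of Hdac4 are no test, since it was chosen on these values, and numbers in brackets tell probes of 1 gene apart. Hdac4 is at -0.95 and -0.73 in the comparisons with IF1-TG, and the points of the other members lie between -0.31 and 0.41.

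Among the class IIa members, all probes of *Hdac5*, *Hdac7* and *Hdac9* had differences above 0 in IF1-TG, although those of *Hdac9* changed sign under some settings. This was not particular to class IIa. Of the 14 other HDAC probes of all classes, 11 were above 0 against IF1-KO and 8 against CRL. Of the 27993 probes kept, 14370 and 14027 were. HDAC5 is a close relative that also represses MEF2 targets and leaves the nucleus of active neurons. Its probe read 4.12, 4.44 and 4.22 in IF1-KO, 3.88, 4.22 and 4.17 in CRL, and 4.67, 4.25 and 4.56 in IF1-TG. All IF1-TG arrays were above all CRL arrays, a pattern of no overlap that 12.3% of all probes had in this comparison, and IF1-TG overlapped IF1-KO. IF1-TG was higher than CRL by 0.40 (SE 0.16, interval 0.038 to 0.77), or 1.32-fold, which is under the fold threshold (limma adjusted P = 0.562). Before adjustment it was past the P threshold, but not with normexp and quantile, with quantile, with slide as a fixed block, with the replicate block, with only the 2 genotypes compared, or when CRL replicate 1 or one of IF1-TG replicates 1 and 3 was left out, where it was 0.30 to 0.53. It differed from IF1-KO by 0.23 (SE 0.16, adjusted P = 0.752). Within slide 2 the IF1-TG array was 0.45 above the IF1-KO array, the library without the loss of *Atpif1*, and 0.51 above the CRL arrays.

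*Hdac7*, best known from blood vessels and thymocytes, was between -0.38 and 0.18 on all 9 arrays and differed by 0.16 from IF1-KO (SE 0.15) and 0.15 from CRL (SE 0.15) in IF1-TG, within the spread. *Hdac9* yields full-length forms and a shorter form, MITR, that lacks the catalytic domain. Its probes are 264 kb apart on the minus strand, at chr12:35056405-35056464 and chr12:34792084-34792143, and were annotated to different transcripts. The former ran from -1.01 to -0.48 and differed by 0.19 between IF1-TG and IF1-KO and by 0.025 between IF1-TG and CRL (SE 0.16 each). The latter ran from -6.53 to -5.65 and differed by 0.23 and 0.37 (SE 0.19 each), with adjusted P = 0.644 for the comparison with CRL and overlapping arrays.

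No class I member was past both thresholds in any comparison. For *Hdac1*, a catalytic subunit of the SIN3, NuRD and CoREST complexes, the probe on the gene's own chromosome (chr4:129193527-129193586) read 1.34, 1.14 and 1.15 in IF1-KO, 1.76, 1.58 and 1.21 in CRL, and 1.19, 1.51 and 1.38 in IF1-TG. IF1-KO differed from CRL by -0.31 (SE 0.16, adjusted P = 1) and IF1-TG from CRL by -0.16 (SE 0.16), with overlapping arrays. With 1 array left out, these differences ran from -0.46 to -0.18 and from -0.31 to -0.035. The 2 uncertain *Hdac1* probes were also below 0 against CRL, by -0.21 and -0.18 in IF1-KO and by -0.093 and -0.24 in IF1-TG.

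*Hdac2*, the paralogue that shares these complexes, had a probe to which the array annotation gave no position. Averaged over 10 spots, the probe read -4.64, -4.53 and -4.76 in IF1-KO, -4.27, -4.59 and -4.37 in CRL, and -4.74, -4.49 and -4.91 in IF1-TG. CRL replicate 2 lay among the arrays of the other genotypes. The difference from CRL was -0.31 in IF1-TG (SE 0.15, interval -0.64 to 0.031, adjusted P = 0.616) and -0.23 in IF1-KO (SE 0.15). *Hdac3*, the enzyme of the NCoR complex, was the most precise member, with SE 0.11. Its 9 values lay between -0.75 and -0.47, and its differences were 0.052 between IF1-TG and IF1-KO, -0.022 between IF1-TG and CRL and -0.074 between IF1-KO and CRL.

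*Hdac8*, which deacetylates the SMC3 subunit of cohesin, was read by 2 probes that gave different pictures. At chrX:99700320-99700379 the probe read -3.60, -3.82 and -3.64 in IF1-KO, -3.92, -3.53 and -3.90 in CRL, and -3.17 and -3.58 in IF1-TG replicates 1 and 3. The spot of IF1-TG replicate 2 was marked as an outlier and dropped, so 8 arrays entered. Both IF1-TG values were above every IF1-KO value, and they overlapped CRL. IF1-TG differed by 0.31 from IF1-KO (SE 0.19, adjusted P = 0.732) and by 0.41 from CRL (SE 0.19, adjusted P = 0.603). Without IF1-TG replicate 3, only replicate 1 was left in IF1-TG and the difference from CRL was 0.61, past both thresholds, and without replicate 1, which left replicate 3 alone, it was 0.20. The lone array is assumed to vary like the other groups. Over all arrays left out in turn, the difference ran from 0.20 to 0.61 from CRL and from 0.11 to 0.51 from IF1-KO. The other probe, with no position, differed by -0.098 and 0.16 (SE 0.26), and its CRL replicate 2 at -3.12 was below the 8 other arrays, which lay between -2.55 and -2.05.

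*Hdac6*, the tubulin deacetylase, showed how far 2 readings of nearly the same sequence can part. The probe at chrX:7507261-7507320 read 1.56, 1.95 and 1.96 in IF1-KO, 1.98, 1.74 and 1.62 in CRL, and 2.05, 1.98 and 2.20 in IF1-TG. Its IF1-TG arrays were above all IF1-KO and all CRL arrays, and IF1-TG differed by 0.25 from IF1-KO (SE 0.15, adjusted P = 0.732) and by 0.30 from CRL (SE 0.15, adjusted P = 0.642). With 1 array left out, these ran from 0.12 to 0.32 and from 0.22 to 0.40. The difference from CRL was 0.15 with normexp and quantile and 0.45 with slide as a fixed block. Probes whose arrays did not overlap made up 13.7% of all probes between IF1-TG and IF1-KO and 8.04% between IF1-KO and CRL, where no HDAC probe had such a pattern. The probe at chrX:7507249-7507308, which shares 48 of its 60 bases, read 1.86, 1.83 and 1.87 in IF1-KO, 2.21, 2.26 and 1.66 in CRL, and 2.11, 1.84 and 1.98 in IF1-TG. There IF1-TG differed by 0.12 from IF1-KO and by -0.070 from CRL (SE 0.17 each), with overlapping arrays, so the higher reading in IF1-TG against CRL was not shared by the overlapping probe.

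**Figure D4:**
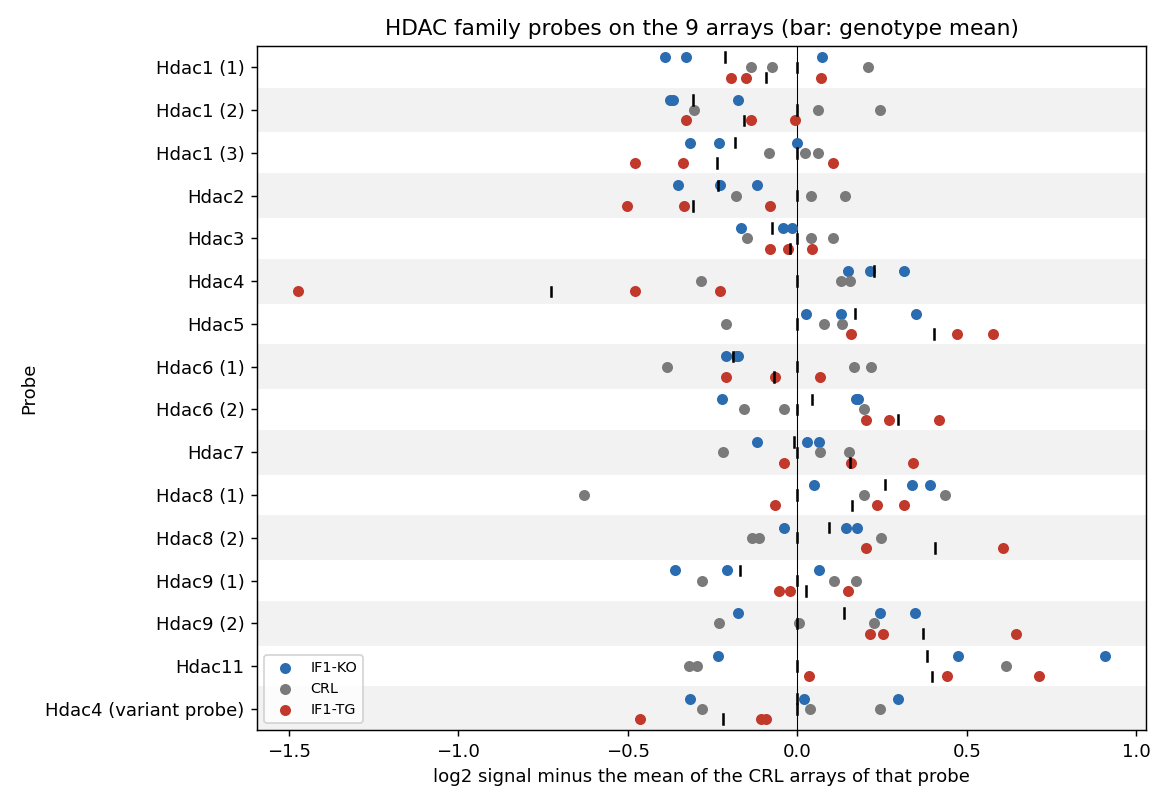
log2 signal of each of the 15 HDAC probes and the Hdac4 variant probe on the 9 arrays (points), minus the mean of the CRL arrays of that probe, with genotype in colour and a black bar at each genotype mean; the x axis is in log2 units. The Hdac4 point of IF1-TG replicate 3 lies furthest to the left, the IF1-TG points of Hdac5 lie to the right of its CRL points, and the points of Hdac11 are the most widely spread of the other members.

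*Hdac11*, which removes long-chain fatty acyl groups as well as acetyl groups, had the largest standard error of the family, 0.35. It read -0.29, 0.85 and 0.42 in IF1-KO, -0.35, -0.38 and 0.56 in CRL, and -0.02, 0.38 and 0.66 in IF1-TG. The genotypes overlapped in every comparison, and the IF1-KO and CRL arrays divided by slide. Their mean was -0.34 ± 0.043 on slide 2 and 0.61 ± 0.22 on slide 3 (SD, n = 3 each), a difference of 0.95 with no overlap. Slides 2 and 3 did not overlap in these arrays for 5 of the 15 HDAC probes and for 23.9% of all probes kept.

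Within slides, IF1-KO and CRL differed in *Hdac11* by 0.072 on slide 2 and 0.078 on slide 3. The IF1-TG array of slide 2, in contrast, was 0.95 above the IF1-KO array, again the library without the loss of *Atpif1*, and 1.02 above the CRL arrays of that slide. With genotype alone in the model the difference of IF1-TG was 0.013 from IF1-KO (adjusted P = 0.996) and 0.40 from CRL (adjusted P = 0.779), whereas with slide as a fixed block it was 0.95 (SE 0.26) and 1.02 (SE 0.24), past both thresholds. Both blocked values rest on 1 IF1-TG array, the only one on a slide with other genotypes.

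Genes that work with the HDACs were described from 4 lists with 86 genes, all tested. At least 1 probe past both thresholds was found for 1 gene between IF1-TG and IF1-KO (1.16%), 2 between IF1-TG and CRL (2.33%) and 0 between IF1-KO and CRL, against 4.7%, 5.59% and 1.34% of the 21906 genes tested. At an unadjusted P value below 0.05 alone, limma gave 7, 10 and 1 of the 86, against 8.83%, 10.5% and 3.24% of all genes, and none had an adjusted P value below 0.05. The median difference of the brightest probe of each gene was 0.016, -0.013 and -0.018, against 0.0066, -0.00067 and -0.0083 over all genes.

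Of the 40 subunits of corepressor complexes, *Rcor3* was past both thresholds between IF1-TG and IF1-KO. RCOR3 is a member of the CoREST family, which joins HDAC1 and HDAC2 to the demethylase KDM1A. It read -0.33, -1.16 and -0.55 in IF1-KO, -0.30, -0.38 and -1.17 in CRL, and 0.06, -0.23 and 0.26 in IF1-TG. All IF1-TG arrays were above all others, and the difference was 0.71 from IF1-KO (SE 0.29, adjusted P = 0.686) and 0.65 from CRL. *Rcor3* was no longer past both thresholds against IF1-KO with slide as a fixed block (0.49) nor after dropping replicate 2 (0.47) or 3 (0.78) of IF1-KO, or replicate 1 (0.70) or 3 (0.60) of IF1-TG. *Arid4b*, a SIN3 subunit, was past both thresholds between IF1-TG and CRL on 1 of its 2 probes, at 0.75 (SE 0.32, adjusted P = 0.581), while the other probe differed by -0.56 (SE 0.33), the opposite direction. The former was not past them with no filter on dim probes (0.75), with normexp and quantile (0.38) or with the fixed slide block (0.76). The same held when IF1-KO replicate 1 (0.75), CRL replicate 3 (0.51), or IF1-TG replicate 1 (0.66) or 3 (0.65) was left out. The scaffolds *Sin3a* and *Ncor1* differed by 0.028 and 0.10 between IF1-TG and IF1-KO on their brightest probes, neither past the thresholds.

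Of the 29 partners of class IIa HDACs, which comprise MEF2 factors, 14-3-3 proteins and the kinases that phosphorylate HDAC4 and HDAC5, *Camk2b* was past both thresholds between IF1-TG and CRL. Its product is the beta subunit of the calcium/calmodulin-dependent kinase II, which binds HDAC4. The *Camk2b* probe past them read 0.79, 0.08 and 0.75 in IF1-KO, 0.26, 0.11 and 0.35 in CRL, and 1.15, 0.77 and 1.33 in IF1-TG. All IF1-TG arrays were above all CRL arrays, by a mean of 0.85 (SE 0.22, adjusted P = 0.413). Its other probe differed by 0.042 (SE 0.17), so the probes of the gene disagreed. The MEF2 factors *Mef2a*, *Mef2c* and *Mef2d* differed by 0.047, -0.17 and 0.067 between IF1-TG and IF1-KO on their brightest probes, and *Mef2b* by -0.45 (adjusted P = 0.660), below the fold threshold.

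None of the 7 sirtuins, the NAD-dependent deacetylases, and none of the 10 acetyltransferases was past both thresholds in any comparison. At an unadjusted P value below 0.05, limma gave 0 sirtuins in each of the 3 comparisons and 1, 3 and 0 of the 10 acetyltransferases, beside the same 8.83%, 10.5% and 3.24% of all genes. *Crebbp*, the coactivator acetyltransferase CBP, differed by 0.39 from IF1-KO (adjusted P = 0.680) and by 0.38 from CRL (adjusted P = 0.547) in IF1-TG, below the fold threshold.

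**Figure D5:**
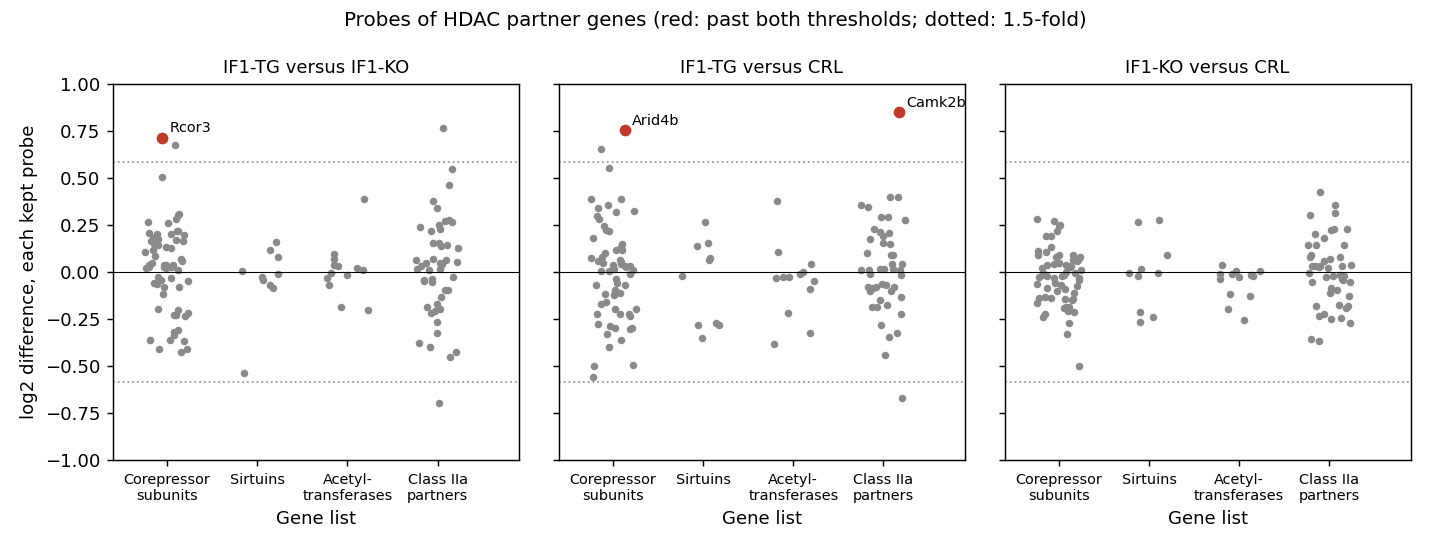
log2 difference of every kept probe of the 86 partner genes in the 3 comparisons, by list, with red points past both thresholds and dotted lines at 1.5-fold; points are spread sideways for clarity. Rcor3 (0.71) is named between IF1-TG and IF1-KO, Arid4b (0.75) and Camk2b (0.85) between IF1-TG and CRL, and no probe between IF1-KO and CRL.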

How the data were processed

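The authors deposited 1-colour Agilent Feature Extraction 10.7.3.1 files with processed intensities, background-subtracted and detrended within each array and not normalized between arrays, and raw mean and background intensities for an alternative. The authors' deposited flags for spots that were saturated, outliers or well above background were not altered. Control spots and spots flagged as outliers were dropped, the log2 signal was set against each array's 75th percentile, and repeated spots were averaged per probe. A probe was kept if 1 or more genotypes had it well above background on all 3 arrays (27993 of 39429, with 21906 gene names). No spot was saturated.

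One limma model (version 3.58.1, R 4.3.3) with genotype as its factor was fitted to all 9 arrays, with the 1.5-fold and 0.05 P value thresholds of the study's methods, taken here as P before adjustment, which the methods do not state. Benjamini-Hochberg adjustment ran over all kept probes. P values rest on the spread between arrays of a genotype, in which mouse, array and slide differences are mixed. The number of arrays limits the precision. Steps were tested on simulated data. Alternatives covered background correction, normalization, filters, slide, replicate number, samples fitted, the variance model and each array left out.

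Members and lists were chosen with earlier results of these data known. The genes named are every member probe, partner genes past the thresholds in any comparison, the genes most like *Hdac4* over the arrays and *Atpif1*; other partners and markers were named as examples after their values were seen. Some genes are not reported here.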

Additional observations from a re-analysis of the deposited data

How the results depend on the processing

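Of 753 values of probes other than *Hdac4* under the alternatives, 712 kept their direction and their side of the thresholds, 3 passed the thresholds (*Hdac11* with slide as a block, *Hdac8* without IF1-TG replicate 3) and 38 changed sign, all for differences of at most 0.371 that were not called; the cause was not tested. The *Hdac4* difference was -1.62 from IF1-KO and -1.43 from CRL with slide as a fixed block. Under that block every difference of IF1-TG, and so every count for IF1-TG, rests on IF1-TG replicate 3 alone. For IF1-TG against IF1-KO, 1 HDAC probe was past the thresholds as reported; the count was 2 under the fixed slide block and ranged from 0 (without IF1-TG replicate 3) to 1 when 1 array was left out; the reported probe is *Hdac4*, chosen for this difference. Between IF1-TG and CRL it was 2 under that block, 0 with only the 2 genotypes compared, and from 0 (without any IF1-KO array or CRL replicate 2 or 3) to 1. Without IF1-TG replicate 3 it was 1, *Hdac8* in place of *Hdac4*. Between IF1-KO and CRL it was 0 throughout. Partner genes between IF1-TG and IF1-KO, 1 as reported, were 4 with normexp and quantile, 2 with quantile, 5 with slide as a fixed block, 2 with only the 2 genotypes compared, and 0 (without IF1-KO replicate 2) to 6 (without IF1-TG replicate 2) with 1 array left out. Of all genes, 4.7% passed as reported and 2.52%, 4.68%, 6.41%, 4.53%, 2.76% and 7.77% in these 6 settings. Between IF1-TG and CRL, 2 as reported, they were 1 with no filter on dim probes, 10 under the fixed slide block, and 1 (without IF1-KO replicate 1) to 6 (without IF1-TG replicate 2), beside 5.59% of all genes as reported and 14.6%, 9.93%, 5.34% and 8.7% in these settings. Between IF1-KO and CRL they were 0 to 1, with 1 without IF1-KO replicate 1 (2.06% of all genes) or CRL replicate 3 (4.59%).

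Signs changed as follows between IF1-TG and IF1-KO. With normexp and quantile, *Hdac1* (chr17) was -0.000172, *Hdac6* at chrX:7507249-7507308 -0.044 and *Hdac11* -0.12, and *Hdac11* was -0.0014 with quantile. With slide as a fixed block, *Hdac1* (chr4) was -0.049, *Hdac3* -0.057, the same *Hdac6* probe -0.074 and *Hdac9* at chr12:35056405-35056464 -0.14. With 1 array left out, the third *Hdac1* probe ranged from -0.23 to 0.067, *Hdac2* from -0.19 to 0.025, the unplaced *Hdac8* probe from -0.20 to 0.016 and *Hdac11* from -0.30 to 0.28. Between IF1-TG and CRL, *Hdac3* was 0.035 and *Hdac9* at chr12:34792084-34792143 -0.0055 with normexp and quantile, and the other *Hdac9* probe was -0.18 with slide as a fixed block. With 1 array left out, *Hdac1* (chr17) ranged from -0.17 to 0.012, *Hdac3* from -0.096 to 0.031, *Hdac6* at chrX:7507249-7507308 from -0.26 to 0.039, the unplaced *Hdac8* probe from -0.15 to 0.38 and *Hdac9* at chr12:35056405-35056464 from -0.11 to 0.11. Between IF1-KO and CRL, *Hdac6* at chrX:7507261-7507320 was -0.038, *Hdac7* 0.048 and *Hdac9* at chr12:34792084-34792143 -0.047 with normexp and quantile, and the *Hdac4* variant probe, 0.00018 as reported, was -0.018 with it and -0.019 with quantile. With slide as a random block *Hdac7* was 0.0033, and as a fixed block 0.056. With 1 array left out, that *Hdac6* probe ranged from -0.036 to 0.18, *Hdac7* from -0.12 to 0.067, the unplaced *Hdac8* probe from -0.056 to 0.48 and the *Hdac4* variant probe from -0.15 to 0.16.

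Arrays with the same replicate number did not deviate together (correlations from -0.17 to 0.12), so the numbers do not pair the mice. With the replicate block the counts were 1, 1 and 0 HDAC probes and 1, 2 and 0 partner genes between IF1-TG and IF1-KO, IF1-TG and CRL, and IF1-KO and CRL.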

Other observations

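Over the 9 arrays, the probes of named genes whose signal was most like that of *Hdac4*, among 20120 compared, belonged to *Zdhhc3*, a palmitoyltransferase (Pearson r = 0.96), *Prpf19*, a splicing factor (0.95), *Pou2f3* (0.93), *Dram1* (0.93) and the cell cycle inhibitor *Cdkn2b* (0.93). Among the most opposite were *Macrod2* (-0.96), *Atp13a1* (-0.96), *Panx1* (-0.95) and *Sh3kbp1* (-0.95). These are the extremes of many values on arrays that differ in genotype and slide, and are given as a description. IF1-TG replicate 3 was the lowest array for the 5 most alike and the highest for these opposite ones, and without it r ran from 0.67 to 0.85 and from -0.93 to -0.87. The probes of *Pou2f3*, *Dram1* and *Cdkn2b* were dim, between -6.86 and -4.68 on all 9 arrays. IF1-TG replicate 3 also had the lowest share of spots well above background, and the part of this was not tested. Among the HDAC probes measured on all 9 arrays, r with *Hdac4* ran from -0.72 for *Hdac6* at chrX:7507261-7507320 to 0.51 for *Hdac2*, and without IF1-TG replicate 3 these were -0.61 and -0.061.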
